A study of Cucumis melo with 4 samples.

Results

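The 46 loci described here are annotated muskmelon loci with a very high mean expression value. Their log2 difference between the libraries of each cultivar stayed under 1.5 in absolute size. Loci were eligible when their gene entry held exactly 1 MELO3C identifier and their region lay on a scaffold, which was so for 25827 of the 32625 loci listed. Eligible loci were ranked by the mean of their 4 values, and the 200 highest were taken. Of these, 154 were dropped because log2((second + 1)/(first + 1)) reached an absolute size of 1.5 or more in at least 1 cultivar, which left 46. The members were thus chosen by these 4 measured RPKM values, so their levels, ranks and second-over-first differences are given as a description, with no test.

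The study sequenced RNA from 2 cultivars of muskmelon (Cucumis melo), BXC and YL. It has 4 samples: salt-stressed BXC, unstressed BXC, salt-stressed YL and unstressed YL, with 1 library each and no replicate. Stressed plants were watered with sodium chloride in Hoagland's solution, raised by 75 mM each day toward final levels of 150 and 300 mM. The labels do not state the level reached in each stressed sample, the tissue, the plants' age or any pooling of plants. All plants were kept in a glasshouse under 14 h of light, with a day temperature of 28 °C and a night temperature of 24 °C. The values are RPKM (read counts scaled by transcript length and library size), deposited in 1 table per cultivar. The tables are called B and Y here, after the letters that begin the titles of the BXC and YL samples. Their columns number the libraries and do not name the treatment, so the libraries are called first and second in column order. Which of them was salted is not known, and every second-over-first difference is without a direction relative to salt. With 1 library per combination, no difference below can be set against a spread between plants, and depth in reads is unknown. In such bulk RNA, fewer cells of a type and less RNA per cell cannot be told apart.

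In most plant tissues a small number of transcripts makes up a large part of the messenger RNA. They commonly encode proteins of translation, photosynthesis, energy metabolism and protein turnover, and such transcripts often serve as references because many cell types need them at all times. RPKM divides a read count by transcript length and by library size, so for a short transcript a few reads give a high value. MELO3C identifiers name predicted genes of the melon genome. The deposited tables pair none of them with a gene name, and 0 of 27427 matched the reference table used here, so the members are given by identifier and position only.

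The members lead only the annotated scaffold loci, not the tables as a whole. Across loci of any kind, 67 had a higher mean than the first member, and 62 of these carried no identifier. The last member was exceeded by 807 loci. The highest locus of all was unannotated, at scaffold00008:7385849-7388319 (2471 bases). It was listed at 188000000 RPKM in the second and 218000000 RPKM in the first B library, and at 380000000 RPKM in the second and 384000000 RPKM in the first Y library. It alone held 56.7% of the second and 38.1% of the first B library's summed values, and 41.1% of the second and 48.4% of the first Y library's. Its values exceed 404694 RPKM, the ceiling for 2471 bases that is explained below, so its share is given only as deposited.

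The 46 loci held a very small share of each library's summed signal. Their share of all deposited values was 0.142% in the second and 0.125% in the first B library. It was 0.0665% in the second and 0.142% in the first Y library. Loci with no identifier held 98.6% and 95.8% in the second and first B libraries, and 99.1% and 97.3% in the second and first Y libraries. Among eligible loci alone, the members' share was 16.5% in the second and 5.16% in the first B library, and 11.9% in the second and 9.66% in the first Y library. The dropped loci held most of that eligible signal, with 67.2% in the second and 91.4% in the first B library, and 79.6% in the second and 85.7% in the first Y library. These are shares of length-scaled values, not of reads. The totals contain values above the ceiling explained below, including those of the highest unannotated locus. Single dropped loci also weighed on the eligible totals. MELO3C008486 had 11000000 of 13905810 RPKM in the first B and 6610000 of 11686934 RPKM in the first Y library. A dropped locus of MELO3C008487 had 1280000 of 2850866 RPKM in the second B and 1400000 of 5167283 RPKM in the second Y library. These values exceed 404694 RPKM, the ceiling for their region of 2471 bases.

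**Figure D1:**
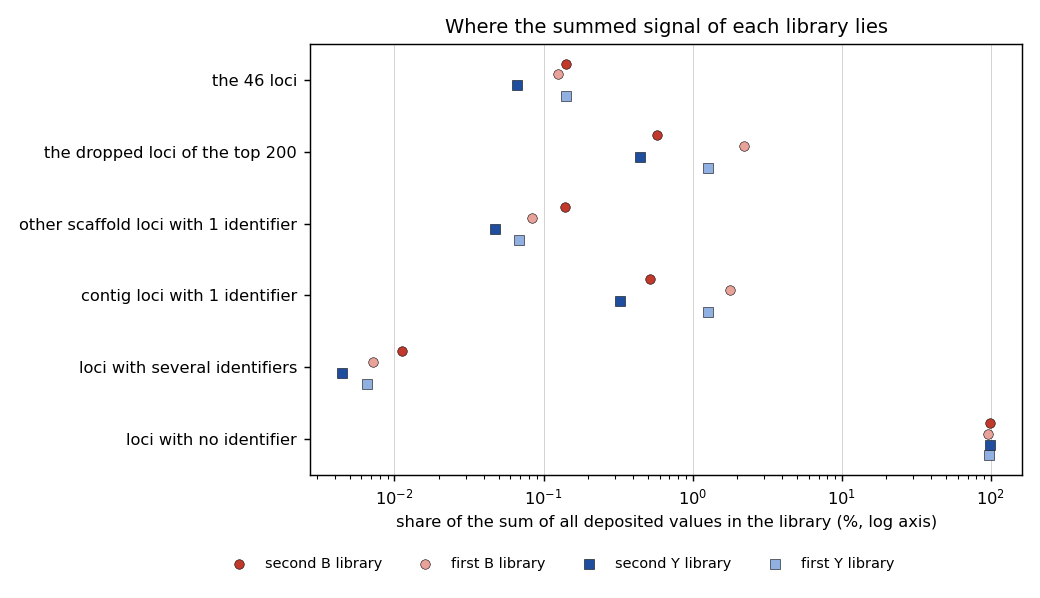
Share of each library's summed deposited values, in percent on a log axis, held by the 46 loci and by 5 other kinds of locus; each point is 1 library (circles, second and first B library; squares, second and first Y library). The 46 loci lie between 0.0665% and 0.142%, while loci with no identifier lie between 95.8% and 99.1%.

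A pair of loci carried most of the members' own signal. MELO3C026780 (scaffold00105:364395-364514, 120 bases), the highest member, had 194230 RPKM in the second and 253486 RPKM in the first B library, and 247979 RPKM in the second and 693724 RPKM in the first Y library. The first Y library stood above the other libraries, which lay close together. MELO3C008485 (scaffold00008:7385584-7385813, 230 bases) had 148442 RPKM in the second and 310259 RPKM in the first B library, and 189567 RPKM in the second and 188971 RPKM in the first Y library. Here the first B library was the high one and both Y libraries were nearly equal. Together these loci made up 72.6% of the members' signal in the second and 78.6% in the first B library, and 71.1% in the second and 78.2% in the first Y library. They were also the only members within the 10 highest eligible loci of any library, and they were so in each of the 4.

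Below that pair the values dropped by about an order of magnitude. MELO3C003985 (scaffold00003:1804252-1804428, 177 bases) had 11605 RPKM in the second and 20526 RPKM in the first B library, and 13845 RPKM in the second and 33704 RPKM in the first Y library. MELO3C006825 (scaffold00006:6414859-6426172, 11314 bases) had 10641 RPKM in the second and 13706 RPKM in the first B library, and 13295 RPKM in the second and 37128 RPKM in the first Y library. In both loci the first Y library was the highest of the 4 and the B and Y values overlapped. MELO3C027089 (scaffold00272:1580-1804, 225 bases) had 15787 RPKM in the second and 13487 RPKM in the first B library, against 21284 RPKM in the second and 21403 RPKM in the first Y library. Its Y values were nearly identical and both lay above the B values.

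MELO3C019622 (scaffold00039:760526-778047) ranged only between 8218 RPKM in the first B library and 12724 RPKM in the first Y library. MELO3C016887 (scaffold00029:2847761-2847956, 196 bases) had 6810 RPKM in the second and 9141 RPKM in the first B library, against 10554 RPKM in the second and 12882 RPKM in the first Y library. The whole B range of that locus lay below its Y range. MELO3C008487 (scaffold00008:7385849-7388319) had 6864 RPKM in the second and 16173 RPKM in the first B library, and 6543 RPKM in the second and 11028 RPKM in the first Y library. In both cultivars its second library was the lower one. The 10 highest members together held 86.2% of the members' signal in the second and 90.4% in the first B library, and 88.8% in the second and 92.3% in the first Y library.

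The remaining members ranged down to MELO3C012508 (scaffold00017:374811-375039), the last, which had 595 RPKM in the second and 467 RPKM in the first B library, and 808 RPKM in the second and 543 RPKM in the first Y library. The first member's mean was 576 times the last one's. The median member stood at 1193 RPKM in the second and 1240 RPKM in the first B library, and at 1288 RPKM in the second and 1736 RPKM in the first Y library. The 15887 eligible loci with a mean of at least 1 RPKM had medians of 9.01 RPKM in the second and 9.56 RPKM in the first B library, and 8.99 RPKM in the second and 10.8 RPKM in the first Y library. The gap between members and that background follows from the ranking.

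**Figure D2:**
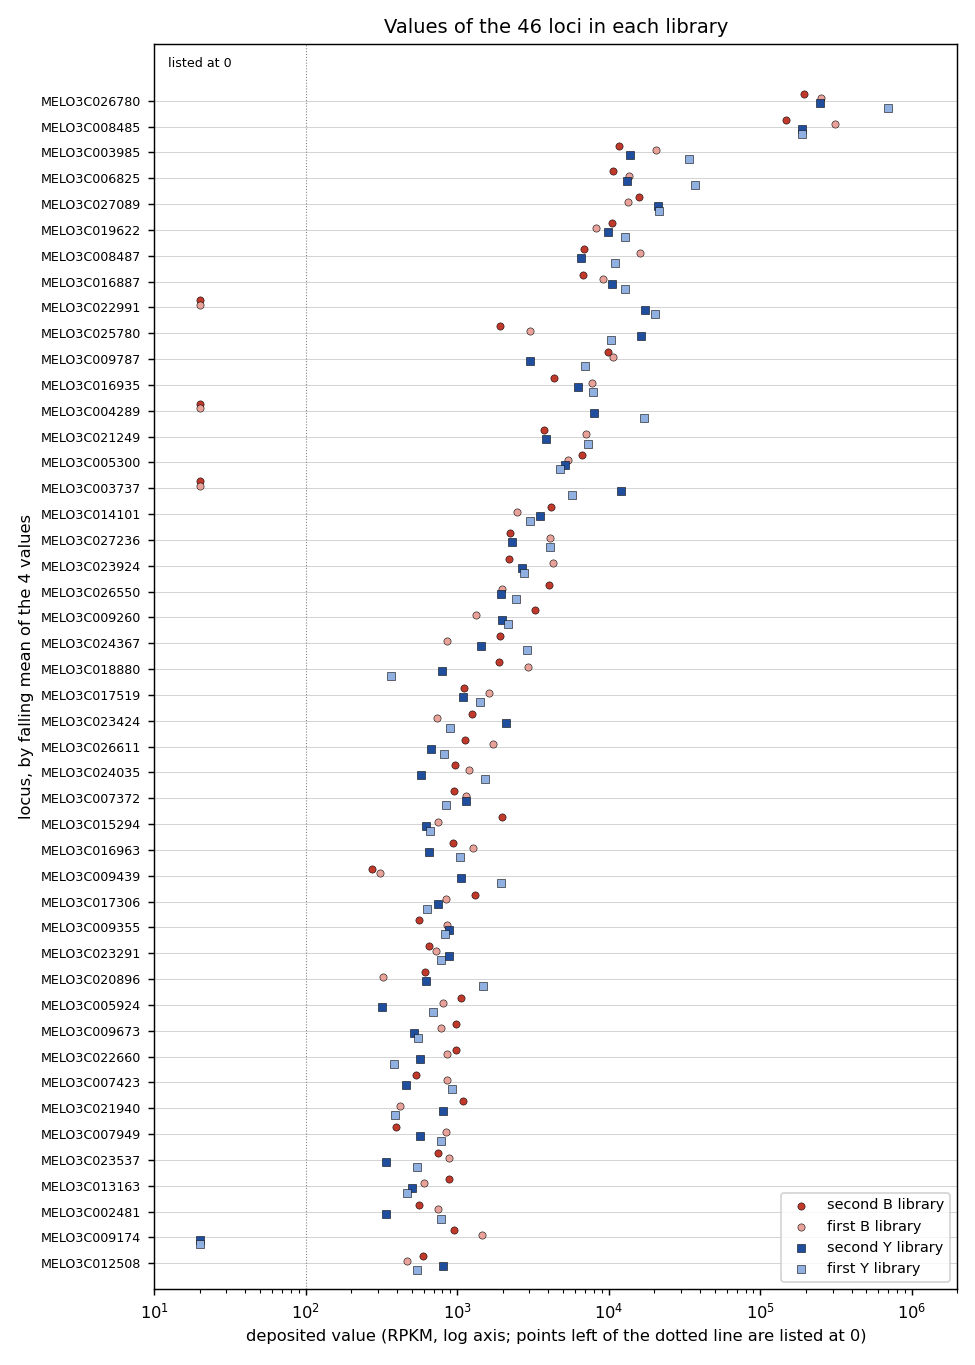
Deposited RPKM of each of the 46 loci in each library on a log axis, ordered downward by mean (circles, second and first B library; squares, second and first Y library); points left of the dotted line are listed at 0. MELO3C026780 and MELO3C008485 stand apart at the top, MELO3C022991, MELO3C004289 and MELO3C003737 are listed at 0 in both B libraries, and MELO3C009174 is listed at 0 in both Y libraries.

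Short regions were frequent among the members. Of the 46, 18 (39.1%) spanned fewer than 300 bases, against 256 (1.61%) of the 15887 eligible loci with a mean of at least 1 RPKM. The short ones gathered at the top: 12 of the 20 highest members were under 300 bases, and 6 of the other 26. The median mean was 4953 RPKM for the 18 short members and 999 RPKM for the 28 longer ones, the highest of which was MELO3C006825 at 18693 RPKM. The median region was 1230 bases long in the members, 1354 bases in the dropped loci and 3937 bases in the background. Across loci, Spearman's rho between region length and mean value was -0.25 over the 46 members and -0.06 over the background, given as a description since RPKM itself contains a length.

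Most short loci were listed at 0, but those with signal were often high. Of the 2922 eligible loci under 300 bases, 90.9% were listed at 0 in every library, compared with 15.8% of the longer eligible loci. Only 256 short loci had a mean of at least 1 RPKM, and 71 of these were among the 200 top loci. The share of short loci among all 200 top loci, dropped ones included, was 35.5%, close to that among the members. The part of read assignment at short loci in these values was not tested. A further limit concerns the scale. If every read came from 1 transcript, its RPKM would be 1000000000 divided by its length, and 24 loci of the tables exceeded that ceiling for their listed region. Among the 24 were the highest unannotated locus and 3 of the dropped loci. Only 1 member exceeded its ceiling, MELO3C004289 (scaffold00003:5779041-5978684), whose Y values of 7941 RPKM in the second and 17043 RPKM in the first library compare with a ceiling of 5009 RPKM for 199644 bases. The tables give the region and not the transcript length used for scaling, so levels of different loci are compared here only as deposited.

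**Figure D3:**
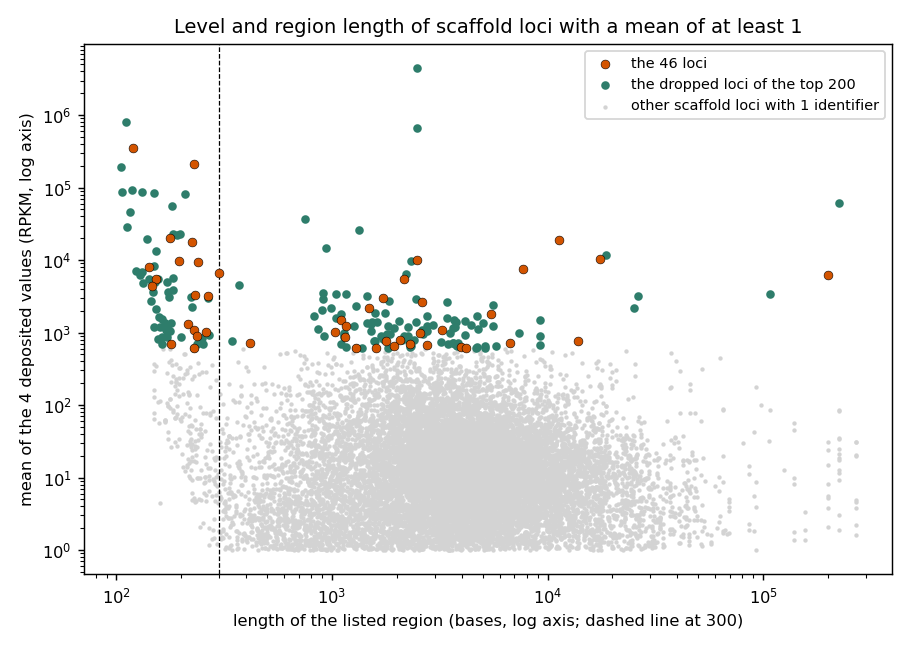
Mean of the 4 deposited values (RPKM, log axis) against region length in bases (log axis) for the 46 loci, the 154 dropped loci and the eligible loci with a mean of at least 1 RPKM. Under 300 bases lie 18 of the 46 loci and 12 of their 20 highest, against 1.61% of the background.

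For 13 of the members (28.3%) the same identifier was also listed at other loci, 15 in all, compared with 20.5% of the background, and 10 of these 13 were under 300 bases. In 12 of the 13 the member had the highest mean of its identifier. Members were chosen for a high mean, so this count and the ratios below are largely set by the rule. Nothing is read from them. MELO3C026780 is an example: its other locus (scaffold00105:365043-367143, 2101 bases) had 126 RPKM in the second and 149 RPKM in the first B library, and 77.7 RPKM in the second and 131 RPKM in the first Y library. The short member's mean was 2874 times that of the longer locus. For MELO3C008485 the corresponding ratio was 52975, since its other locus (scaffold00008:7385192-7385551) had 2.76 RPKM in the second and 10.4 RPKM in the first B library, and 2.66 RPKM in the second and 0 in the first Y library. The ratio was also large for MELO3C016887 (800) and MELO3C025780 (683), and smaller for MELO3C027236 (47.6) and MELO3C012508 (33.3). Of the 12 ratios that could be formed, 11 were at least 10 and the median was 881. The exception was MELO3C008487, whose other locus in the same region was listed at 1280000 RPKM in the second B and 1400000 RPKM in the second Y library, and at 0 in both first libraries. Reads of such overlapping or repeated entries may have been divided between loci, so the level of these identifiers as whole genes is uncertain.

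**Figure D4:**
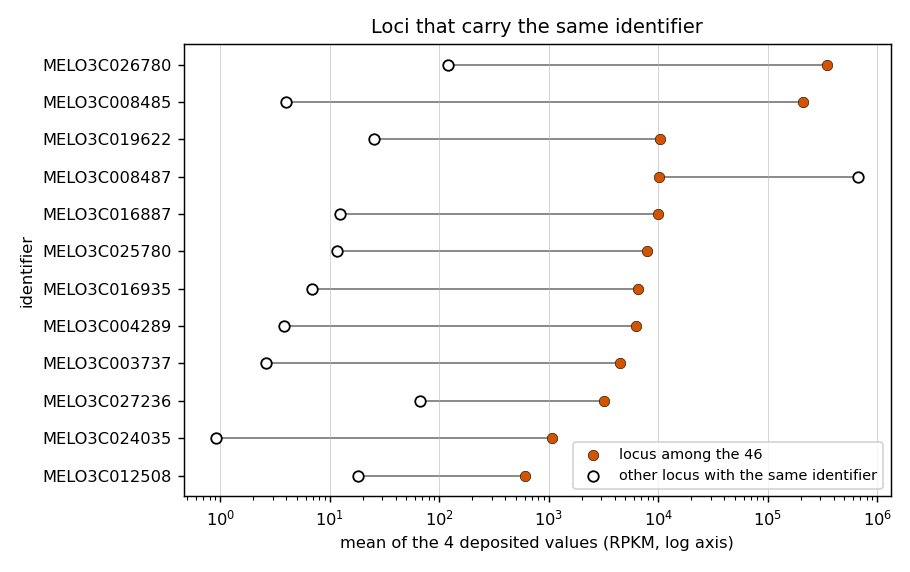
Mean of the 4 deposited values (RPKM, log axis) of the member (filled) and of the highest other locus with the same identifier (open), for the 12 identifiers with another locus above 0. The member is the higher one in each except MELO3C008487; MELO3C003985, whose other locus is listed at 0 in every library, is not drawn.

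In position the members were scattered. They lay on 31 of the 506 scaffolds with an eligible locus, and 22 scaffolds held a single member. The most on 1 scaffold was 6, on scaffold00011. Only 1 pair lay within 10000 bases of each other, MELO3C008485 and MELO3C008487, and the region of MELO3C008487 is also that of the dropped MELO3C008486 and of the highest unannotated locus. Exactly shared regions occurred in 9 members (19.6%), against 24.8% of the background, and in 8 of the 9 the member had the highest mean of the loci listed there, MELO3C008487 being the exception. The choice by mean largely sets that order too. MELO3C006825, for instance, shares its region with MELO3C006824, whose mean the member exceeded 8069-fold.

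Between the libraries of a cultivar the rule itself bounded the difference, so the following counts are description only. In B, the second library was at least 2-fold above the first in 5 members and at least 2-fold below it in 3, while 20.9% and 22.1% of the background were so. In Y, it was above in 4 and below in 11, beside 21.8% and 28.7% of the background. In sign alone, 26 members were lower and 17 higher in the second B library, and 30 were lower and 15 higher in the second Y library. In both cultivars at once, 19 members were lower, 8 were higher, and 15 had opposite signs. Signs were not counted over the background, so these counts are not read as a trait of the members. The median log2 difference was -0.21 for the members and -0.03 for the background in B, and -0.28 for the members and -0.25 for the background in Y. In the authors' deposited table, 0 of the 43 members tested in B and 0 of the 45 tested in Y had a q-value under 0.05, beside 0.452% and 0.592% of the background loci tested. The unadjusted p-value in the authors' deposited table was under 0.05 in 0 members of either cultivar, beside 7.08% in B and 7.6% in Y. The rule limited this contrast, so nothing is read from these counts. The lowest member q-values in the authors' deposited table were 0.999927 in B and 0.880498 in Y.

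MELO3C021940 was at least 2-fold higher in the second than in the first library of both cultivars, with 1100 RPKM in the second and 416 RPKM in the first B library, and 804 RPKM in the second and 391 RPKM in the first Y library. MELO3C023424 moved the same way, with 1258 RPKM in the second and 734 RPKM in the first B library, and 2100 RPKM in the second and 901 RPKM in the first Y library. In each of these the second library exceeded the first in both cultivars. The reverse order was clear in MELO3C021249, with 3738 RPKM in the second and 7108 RPKM in the first B library, and 3844 RPKM in the second and 7321 RPKM in the first Y library. MELO3C027236 had 2248 RPKM in the second and 4127 RPKM in the first B library, and 2305 RPKM in the second and 4124 RPKM in the first Y library. The values of these last loci nearly coincided between the cultivars. These 4 were chosen after their values were seen.

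The difference between the cultivars was left free by the rule, which limited only that within a cultivar. A mean over 4 values also lets in loci that 1 cultivar carries, such as MELO3C009439, with a mean of 292 RPKM in B and 1501 RPKM in Y. The counts between cultivars are therefore descriptions of a selected list. Both B values lay above both Y values in 12 members (26.1%), and both below in 9 (19.6%), while in 25 the ranges overlapped. Without the members listed at 0 in 1 cultivar, which were ranked only through the other, 11 lay above and 6 below. Over the background the shares were 7.66% above and 6.8% below. The fold limit narrows the gap within a cultivar, and among the 8933 background loci inside that limit the shares were 12.8% and 9.86%. Column for column, the first libraries had 4 members at least 2-fold higher and 9 at least 2-fold lower in B than in Y, beside 5.22% and 10.3% of the background. The second libraries had 7 and 5, beside 9.28% and 11.7%. In both pairs these counts include the 4 members listed at 0 in 1 cultivar. The tables may have been scaled separately. The median over eligible loci above 0 was 10.7 RPKM in the second and 11.7 RPKM in the first B library, and 9.62 RPKM in the second and 12.7 RPKM in the first Y library. With each library divided by that median, 9 members lay above and 11 below.

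The list holds 4 members listed at 0 in both libraries of 1 cultivar. They ranked in the top 200 only through the other cultivar, and their second-over-first value of 0 in the cultivar listed at 0 met the fold limit by construction. Their contrast between the cultivars is thus part of how they were chosen. MELO3C022991 (scaffold00057:323488-323727, 240 bases) was listed at 0 in both B libraries, against 17448 RPKM in the second and 20342 RPKM in the first Y library. MELO3C003737 (scaffold01596:3725968-3726114, 147 bases) was likewise listed at 0 in both B libraries, against 11977 RPKM in the second and 5746 RPKM in the first Y library. MELO3C004289 was the third such locus, and another locus of that identifier in the same region had 6.39 RPKM in the second and 8.88 RPKM in the first B library and was listed at 0 in both Y libraries. Its entries therefore alternated between the cultivars. The only member listed at 0 in Y was MELO3C009174 (scaffold00011:518219-522390, 4172 bases), with 951 RPKM in the second and 1466 RPKM in the first B library. Its region is shared with MELO3C009173, which had 8.47 RPKM in the second and 6.57 RPKM in the first B library, and 11.3 RPKM in the second and 5.48 RPKM in the first Y library. Among the 8933 background loci inside the limit, 40 were listed at 0 in both B and above 0 in both Y libraries, and 19 the other way round. No fold is given for these members.

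Among members above 0 in every library, MELO3C018880 (scaffold00034:3633770-3634868) was the most B-biased. It had 1876 RPKM in the second and 2912 RPKM in the first B library, against 797 RPKM in the second and 368 RPKM in the first Y library. On the log2(value + 1) scale B exceeded Y by 2.98 in the first and 1.23 in the second libraries. MELO3C009787 (scaffold00011:5008399-5016089) had 9864 RPKM in the second and 10707 RPKM in the first B library, against 3032 RPKM in the second and 6986 RPKM in the first Y library. Its B values were close together and both above the Y values. MELO3C022660 (scaffold00054:313145-313324) had 986 RPKM in the second and 854 RPKM in the first B library, against 565 RPKM in the second and 381 RPKM in the first Y library. MELO3C005924 (scaffold00005:8747870-8754582) had 1054 RPKM in the second and 809 RPKM in the first B library, against 319 RPKM in the second and 688 RPKM in the first Y library. For all 4 of these loci the lower B value exceeded the higher Y value.

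In the opposite direction, MELO3C025780 (scaffold00082:1171373-1171514, 142 bases) had 1921 RPKM in the second and 3008 RPKM in the first B library, against 16312 RPKM in the second and 10363 RPKM in the first Y library. The log2 difference of B from Y was -1.78 in the first and -3.09 in the second libraries. MELO3C009439 (scaffold00011:2185318-2185554, 237 bases) had 272 RPKM in the second and 311 RPKM in the first B library, against 1062 RPKM in the second and 1940 RPKM in the first Y library. Its differences were -2.64 in the first and -1.96 in the second libraries. MELO3C020896 also had both B values lower. Its first libraries stood at 324 RPKM in B and 1478 RPKM in Y, while its second libraries were nearly equal, at 616 RPKM in B and 621 RPKM in Y. Without the members under 300 bases, 3 of the 9 with lower B values and 9 of the 12 with higher B values were left.

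Over all members the cultivars did not lean one way. The median log2 difference of B from Y was -0.04 in the first and 0.05 in the second libraries, compared with -0.08 and 0.12 over the background. Comparing each cultivar's mean, 4 members (8.7%) were at least 2-fold higher and 8 (17.4%) at least 2-fold lower in B, beside 3.85% and 10.7% of the background. Without the members listed at 0 in a cultivar, these were 3 and 5.

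**Figure D5:**
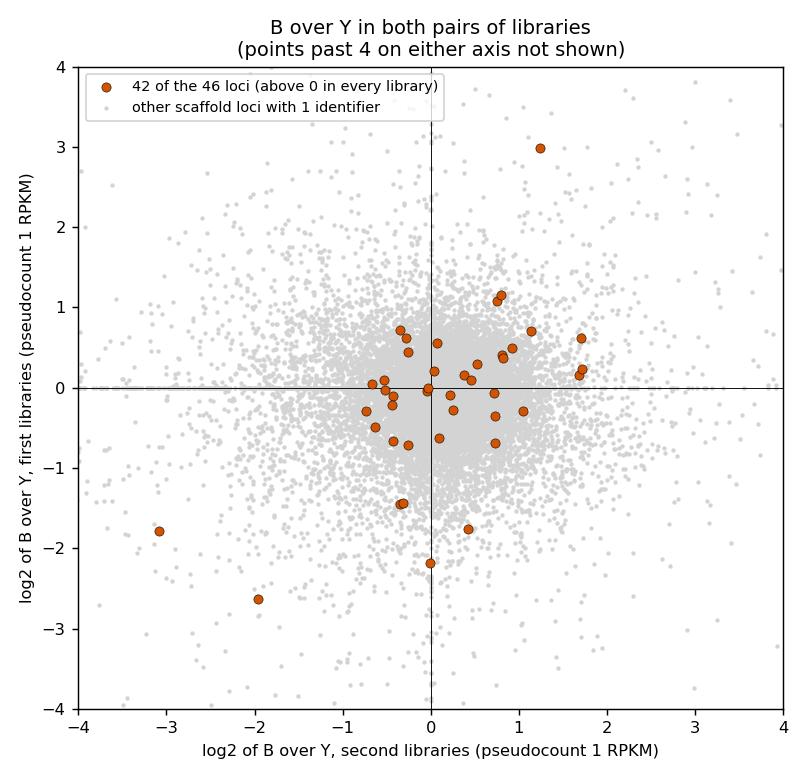
Log2 difference of B from Y, computed as log2((B + 1)/(Y + 1)), in the second libraries (horizontal axis) and the first libraries (vertical axis), for the 42 members above 0 in every library (orange) and the other eligible loci with a mean of at least 1 RPKM (grey, those past 4 on either axis not shown). MELO3C018880 is the highest point at 2.98, MELO3C025780 lies farthest left at -3.09, and most other members lie near the centre.

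Steady members were the other extreme. The 4 values of 17 members (37.0%) lay within 2-fold of each other on the log2(value + 1) scale, against 55.0% of the 8933 background loci inside the fold limit. The 4 members listed at 0 in 1 cultivar could not be among the 17. The added 1 RPKM also narrows ranges more at the lower values of the background, so nothing is read from the difference. The steadiest was MELO3C023291 (scaffold00059:975678-977451), with 656 RPKM in the second and 729 RPKM in the first B library, and 886 RPKM in the second and 784 RPKM in the first Y library. MELO3C007372 (scaffold00007:2416018-2417051) had 947 RPKM in the second and 1145 RPKM in the first B library, and 1138 RPKM in the second and 845 RPKM in the first Y library. MELO3C005300 (scaffold00005:3812985-3813137, 153 bases) had 6662 RPKM in the second and 5349 RPKM in the first B library, and 5119 RPKM in the second and 4773 RPKM in the first Y library. The ranges of these loci on the log2 scale were 0.43, 0.44 and 0.48, followed by 0.59 for MELO3C017519 and 0.63 for MELO3C019622. Of these 5, MELO3C007372, MELO3C017519 and MELO3C019622 had overlapping B and Y values.

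Since the rule limited differences within a cultivar and not between them, a comparison of the order of the members within and between cultivars is partly set by the rule. Spearman's rho over the 46 loci was 0.869 between the second and first B libraries and 0.900 between the second and first Y libraries. Between B and Y it was 0.567 for the second and 0.557 for the first libraries. Over the 42 members above 0 in every library it was 0.848 within B, 0.877 within Y, and 0.826 for the second and 0.805 for the first libraries between B and Y. Most of the gap over the 46 loci was thus absent over these 42. These coefficients describe loci that share lengths and libraries, and carry no p-value. MELO3C026780 led the members in the second B and both Y libraries, and MELO3C008485 led in the first B library. The third place went to MELO3C027089 in the second B library, MELO3C003985 in the first B library, MELO3C027089 in the second Y library and MELO3C006825 in the first Y library.

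Against all eligible loci, 41 members were within the 200 highest of the second and 39 within those of the first B library. In Y, 40 were within the 200 highest of the second and 35 within those of the first library. Of the 53 eligible loci within the 200 highest of every library, 27 were members, while 418 loci were within the 200 highest of at least 1. For the 42 members above 0 in every library, the median gap between the best and the worst rank was 60 places. The widest gap among these was 308 places, in MELO3C018880, which ranked 60 in the second and 52 in the first B library, against 140 in the second and 360 in the first Y library.

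The fold limit removed more of the top loci than of lower ones. Of the 200 highest, 154 (77%) exceeded it, beside 43.8% of the background. The share was 70% over ranks 1 to 50, 84% over ranks 51 to 100 and 77% over ranks 101 to 200. It was 71% over ranks 201 to 400, 58.2% over ranks 401 to 1000 and 50.3% over ranks 1001 to 2000. Since an extreme value in 1 library raises both the mean and the fold, nothing is read from this trend. Among the 154, 102 exceeded the limit in both cultivars and 42 were listed at 0 in a library. In B, 45 were higher and 76 lower in the second library, and in Y 51 were higher and 84 lower. The authors' deposited table gives a q-value under 0.05 to 7 of the 144 dropped loci tested in B (4.86%) and to 4 of the 153 tested in Y (2.61%). The background shares, 0.452% and 0.592%, include loci inside the limit, and the dropped loci were picked for a large fold.

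The 3 highest dropped loci show what the limit took out. MELO3C008486 had 107001 RPKM in the second and 11000000 RPKM in the first B library, and 106800 RPKM in the second and 6610000 RPKM in the first Y library. MELO3C006932 had 164209 RPKM in the second and 866079 RPKM in the first B library, and 343144 RPKM in the second and 1850000 RPKM in the first Y library. The third was the other locus of MELO3C008487, which was at 0 in both first libraries. In the fourth, MELO3C019735, both B libraries were listed at 0, and in the fifth, MELO3C015411, the second B library was.

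The members nearest the limit were MELO3C026780 and MELO3C006825, both at -1.48 in Y, and MELO3C015294 at 1.42 in B. The nearest dropped loci were MELO3C020097 (-1.55 in B and -1.63 in Y), MELO3C019935 (1.57 in B) and MELO3C025772 (-1.61 in B). At the rank limit, the last members MELO3C009174 and MELO3C012508 had means of 604.1 RPKM and 603.3 RPKM. The next loci, MELO3C005666 at 602.6 RPKM, MELO3C019981 at 602.6 RPKM and MELO3C021708 at 593.1 RPKM, lay directly below. Of the members, 15 ranked within the first 50 and 23 between 101 and 200.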

How the data were processed

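The analysis used RNA-seq values of 4 muskmelon libraries, held in 2 deposited tables of 32625 loci each. Per the name of the deposited tables the values are RPKM, computed by the authors. The submitters' processing notes name CASAVA and TopHat2 with no version. No source used here gives the quantifier or its settings. The genome build appears only as the prefix CM3.5 of the locus names. The deposited p-value and q-value compare the libraries of a table, and how they were computed from 1 library per condition is not recorded. A table was tied to a cultivar by its letter, which begins the sample titles, and no column was tied to a treatment. Per-sample columns of other series numbered 0. Region starts, which include 0 in 207 loci, were raised by 1.

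Loci were joined by their locus number, selected as described, and compared by log2((a + 1)/(b + 1)) with a pseudocount of 1 RPKM. Background is the 15887 eligible loci with a mean of at least 1 RPKM. No test was run, as each combination has 1 library. The loci named are those with the highest and lowest means, those nearest each limit, the steadiest, those most different between cultivars and in rank, and near neighbours, besides examples whose choice is stated. The loci and rules were chosen with earlier results of these data known. The loci with a repeated identifier or shared region were picked after their values were seen, as was the comparison of both B with both Y values. The selection was tested on simulated data. Python 3.11.15, numpy 2.4.6, pandas 2.3.3, scipy 1.17.1 and matplotlib 3.10.9 were used.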

Additional observations from a re-analysis of the deposited data

Results flagged for a closer look

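MELO3C024367 (scaffold00067:1079030-1084520) shares its region with MELO3C024365 and MELO3C024366 and had opposite differences in the cultivars, each past 2-fold. It had 1927 RPKM in the second and 856 RPKM in the first B library, and 1437 RPKM in the second and 2893 RPKM in the first Y library. Second over first, the log2 difference was 1.17 in B and -1.01 in Y. The difference between the cultivars was not tested, since each value rests on 1 library, and it would keep or change its sense with the unknown order of the treatments.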

How the results depend on the processing

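Over 15 results and 75 alternative values, 46 stayed close to the reported value (within 1.5 times for counts and shares, within 0.1 for rho), 29 moved and 0 reversed. The 46 loci became 23 from the top 100, 104 from the top 400 and 25 at a fold limit of 1. They became 77 when ranked by the mean log2 value and 131 when ranked by the lowest value, and 42 of the 46 were kept in each. Ranking all loci, whatever their identifiers and sequence, gave 65 loci with only 2 of the 46 among them, and leaving out loci under 300 bases gave 45 with 28 of the 46. Leaving out a library gave 40 to 50 loci. Over the eligible total, the members' share was 16.5% in the second and 5.16% in the first B library, and 11.9% in the second and 9.66% in the first Y library. With loci that share a region left out of the total, but all 46 members kept in the sum, it was 0.332%, 0.209%, 0.113% and 0.280%. Those shares, in the same order of libraries, thus rise because the total shrinks. Without loci under 300 bases in both members and total it was 0.0409%, 0.0392%, 0.0194% and 0.0317%. Ranking without the library concerned kept each share between 0.0665% and 0.142%. In Y, 9 in place of 15 members were past 2-fold once centred on the median. Past 4-fold between B and Y were 5 members in the second and 7 in the first libraries. Each count includes the 4 members listed at 0 in 1 cultivar, which were ranked only through the other. The background share past 4-fold was not computed, so nothing is read from these counts. Members with lower B values numbered 3 without those under 300 bases. In B, rho became 0.980 as Pearson's r on log2 values and 0.745 without the 10 highest members. Between B and Y, the same settings gave 0.239 and 0.416 in the second and 0.294 and 0.338 in the first libraries, and 0.826 and 0.805 without members listed at 0. The settings on length, on values of 0 and on library medians were chosen after seeing the data. Causes were not tested. No paired analysis was possible because the columns carry no replicate number and no result comes from a test. The precision set by depth is unknown, since the tables hold no counts.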
